A study of Mus musculus with 12 samples.

Results

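The genes described here are those of the major histocompatibility complex (MHC, called H2 in the mouse) and of antigen presentation. They were taken by symbol: every gene whose symbol begins with *H2-*, together with *B2m*, *Tap1*, *Tap2*, the genes whose symbols begin with *Tapbp*, *Psmb8*, *Psmb9*, *Psmb10*, *Psme1*, *Psme2*, *Nlrc5*, *Ciita*, *Cd74*, *Cd1d1* and *Erap1*. The rule found 43 of the 15687 genes in the deposited table. No expression value entered it. The mouse annotation holds 60 genes under the same rule, and the 17 that the table does not list, among them *H2-Q3*, *H2-T3*, *H2-Pa*, *H2-Pb* and most of the *H2-M* genes, were not analysed here. The lowest mean of any gene in the table was 9.28 normalized counts over all tumors. The 43 genes fell into 21 of class I, 11 of class II, 10 of antigen processing, and *H2-Ke6*, which lies in the H2 region but encodes no MHC chain.

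RNA was sequenced from 12 subcutaneous tumors that grew in male C57BL6/J mice, 8 weeks old when they were injected with cells of mTC11, a lung cancer line of the mouse. The 6 CTL tumors came from cells transduced with a lentivirus encoding a scrambled shRNA, and the 6 KD tumors from cells transduced with a lentivirus encoding a shRNA against *Filip1l*. Cells of both groups were mixed clones selected with puromycin, and all tumors were collected at day 24. The study used a pair of shRNA sequences against *Filip1l*, and the sources used here do not say which one was in the sequenced tumors, nor how many cell populations stood behind the tumors of a group, so p-values measure the spread between tumors.

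Class I molecules display short peptides from inside the cell to CD8 T cells. Each consists of a heavy chain and β2-microglobulin. The peptides are cut by the proteasome, which can exchange its standard catalytic subunits for interferon-induced ones, pumped into the endoplasmic reticulum by the TAP transporter, trimmed by ERAP1 and loaded with the help of tapasin. Class II molecules are αβ pairs that display peptides from endosomes to CD4 T cells, mainly on macrophages, dendritic cells and B cells, and the invariant chain CD74 occupies their groove until H2-DM replaces its remnant with a peptide. NLRC5 and CIITA are the transcriptional coactivators of the class I and the class II genes. A bulk tumor holds both cancer cells and host cells, so that fewer cells of a type and less RNA per cell cannot be told apart.

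The tumors had 17834745 to 29502069 reads on listed genes in CTL and 25460564 to 32419578 in KD. *Filip1l* itself was at 2311 ± 211 normalized counts (SD, n = 6) in CTL and 1924 ± 165 (n = 6) in KD, a log2 fold change of -0.26 (limma adjusted p = 0.00998). 1 CTL tumor stood high in the genes described here: CTL 3 had the highest CTL value of 33 of the 43 genes, and CTL 2 the lowest of 31. Among KD tumors, KD 2 was highest in 24 and KD 4 lowest in 24. CTL 3 was also the highest CTL tumor in the summed level of the leukocyte, macrophage, dendritic cell and T cell markers, whereas among KD tumors KD 1 was highest and KD 4 lowest in each of these 4 sums. Most of the dendritic cell sum was a single gene, *Itgax*. The epithelial keratins *Krt8* and *Krt18* were abundant in all tumors. The lung epithelial marker *Nkx2-1* was at 17.2 ± 14.3 normalized counts in CTL and 39.4 ± 40.9 in KD (limma adjusted p = 0.443). The alveolar marker *Sftpc* was at 9.76 ± 21.2 in CTL and 29.2 ± 25.9 in KD (limma adjusted p = 0.148). Neither marker thus had an adjusted p under 0.05. The CTL mean of *Sftpc* rested mostly on CTL 1, at 53.0, and its KD values ran from 0 to 60.5. The airway marker *Scgb1a1* was not among the listed genes.

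Promoters of 4 class I genes are shown because they set a classical gene with a small difference between the groups beside the nonclassical gene with the widest one. Each is the stretch of 250 bases before the RefSeq start site (GRCm38.p6), written 5′ to 3′ on the gene's strand. Capitals mark matches, on either strand, to GAANNGAAA, the core of the interferon-stimulated response element, and to GGGATTCC or GGGANTTCC, forms of an NF-κB site. *H2-D1* (chr17:35262844-35263093, plus strand) is classical, *H2-Q4* (chr17:35379367-35379616, plus strand), *H2-Q10* (chr17:35469839-35470088, plus strand) and *H2-Q2* (chr17:35342057-35342306, plus strand) are nonclassical.
H2-D1: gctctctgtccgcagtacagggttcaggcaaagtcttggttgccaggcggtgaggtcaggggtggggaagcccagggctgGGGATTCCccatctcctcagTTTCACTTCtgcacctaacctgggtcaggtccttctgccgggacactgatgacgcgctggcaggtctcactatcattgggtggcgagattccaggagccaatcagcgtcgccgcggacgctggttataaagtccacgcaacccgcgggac
H2-Q4: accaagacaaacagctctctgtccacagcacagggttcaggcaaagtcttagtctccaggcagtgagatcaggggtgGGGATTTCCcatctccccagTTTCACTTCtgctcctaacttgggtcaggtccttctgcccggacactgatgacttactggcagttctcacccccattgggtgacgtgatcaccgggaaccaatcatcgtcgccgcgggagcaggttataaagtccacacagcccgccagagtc
H2-Q10: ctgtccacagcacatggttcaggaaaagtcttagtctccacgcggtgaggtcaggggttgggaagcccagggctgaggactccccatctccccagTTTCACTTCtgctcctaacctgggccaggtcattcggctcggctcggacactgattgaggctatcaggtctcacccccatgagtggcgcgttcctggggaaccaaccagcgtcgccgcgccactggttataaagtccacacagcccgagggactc
H2-Q2: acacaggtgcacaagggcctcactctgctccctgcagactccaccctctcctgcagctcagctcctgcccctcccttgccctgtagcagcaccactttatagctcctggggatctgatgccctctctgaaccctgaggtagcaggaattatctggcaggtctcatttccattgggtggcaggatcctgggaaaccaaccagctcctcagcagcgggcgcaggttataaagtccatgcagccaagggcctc

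The response-element core began at base -150 of *H2-D1*, -153 of *H2-Q4* and -155 of *H2-Q10*, counted back from the start site, and the NF-κB letters at -170 of *H2-D1* and -173 of *H2-Q4*. The window of *H2-Q2* held none of these letters, and that of *H2-Q10* only the response-element core. An alignment end to end gave *H2-Q2* 58.5% identity to *H2-D1*, 60.4% to *H2-Q4* and 57.7% to *H2-Q10*, while *H2-D1* and *H2-Q10* were 80.4% identical. The RefSeq promoter table matched 30 of the 43 genes. The response-element core was found in 8 of these 30 (*H2-K1*, *H2-D1*, *H2-Q4*, *H2-Q6*, *H2-Q7*, *H2-Q10*, *H2-M3* and *H2-M2*) and in 6.34% of the 27025 promoters of the table. GGGATTCC was found in 4 of 30 against 0.873% of all, and GGGANTTCC in 3 of 30 against 1.42%. A match describes letters and shows no binding.

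The first question was how far class I transcripts differed between KD and CTL tumors. They were higher in KD at 11 of 21 genes and lower at 0 with an adjusted p under 0.05, where 21.1% of all genes were higher and 20.7% lower (limma on log2 of the normalized count plus 1, Benjamini-Hochberg adjustment over all 15687 genes). With a log2 fold change over 1 as well, the thresholds of the study, 7 of 21 were higher and 0 lower, beside 6.2% and 3.97% of all genes, and genes that passed both thresholds are named as called below. At an unadjusted p under 0.05 limma and edgeR each gave 1 lower class I gene, *Nlrc5*. The share of all genes at this looser cut was not counted, and in limma it cannot be below the 20.7% lower after adjustment. The median log2 fold change of the class I genes was 0.32, and that of all genes 0.01. Differences were unevenly spread over the class. Among the 8 genes whose mean over all tumors reached 5000 normalized counts 2 were higher and 0 called, with a median of 0.15, whereas among the 13 genes at lower levels 9 were higher and 7 called, with a median of 1.08.

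**Figure D1:**
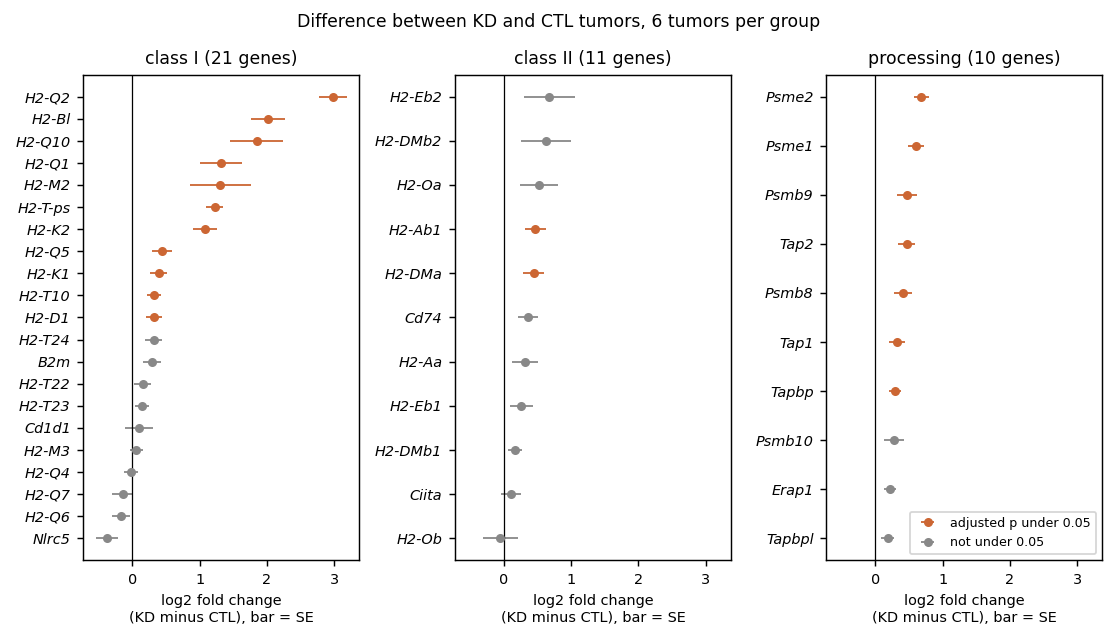
Log2 fold change (KD minus CTL) of each gene with its standard error, for class I, class II and processing genes, 6 tumors per group. Orange points have an adjusted p under 0.05. The 7 class I genes at the top lie between 1.08 and 2.98, and no gene of the other classes lies above 0.69.

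The classical heavy chain genes *H2-K1* and *H2-D1*, which present peptides to CD8 T cells in this strain, were the most abundant heavy chains. *H2-K1* ranged from 63774 to 107031 normalized counts in CTL (median 79317) and from 89320 to 128022 in KD (median 102510). All 6 KD tumors lay above the CTL median, 2 of them above CTL 3, the highest CTL tumor. Its log2 fold change was 0.39 (SE 0.13, limma adjusted p = 0.0227). *H2-D1* ranged from 63548 to 98805 (median 75067) in CTL and from 83320 to 116265 (median 95140) in KD, a log2 fold change of 0.32 (SE 0.12, limma adjusted p = 0.0398). Both genes thus rose by a modest amount while the ranges of the groups overlapped. *H2-D1* did not pass with chromosome medians removed (limma adjusted p = 0.0534), and with single tumors left out it failed 8 times out of 12 and *H2-K1* 4 times. *B2m*, the shared light chain, was at 64133 ± 9913 in CTL and 79227 ± 15756 in KD (SD, n = 6 each), and its log2 fold change of 0.29 did not pass the test (limma adjusted p = 0.103). Per kilobase of exon *B2m* was the most abundant of the 43 genes, with a mean of 74574 normalized counts per kb in CTL, against 30172 for *H2-D1* and 27560 for *H2-K1*. The sum of *H2-K1* and *H2-D1* made up 0.482% to 0.764% of all reads in CTL and 0.648% to 0.854% in KD.

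The abundant nonclassical genes did not pass the test. *H2-T23* encodes Qa-1, the ligand of the natural killer cell receptor NKG2A, and was at 10365 ± 1562 in CTL and 11413 ± 1379 in KD (log2 fold change 0.14, limma adjusted p = 0.291). *H2-T22*, whose product is recognized by a subset of γδ T cells, gave 0.15 (limma adjusted p = 0.369). *H2-Q7* and *H2-Q6*, which encode Qa-2 antigens, had log2 fold changes of -0.14 (limma adjusted p = 0.501) and -0.17 (limma adjusted p = 0.353), and *H2-Q4* of -0.02 (limma adjusted p = 0.898). *H2-Q7* ranged from 8690 to 18113 in CTL and from 8697 to 14117 in KD, so that its KD range lay within its CTL range. *H2-M3*, which presents formylated bacterial and mitochondrial peptides, was at 839 ± 114 and 873 ± 99.4 (log2 fold change 0.06, limma adjusted p = 0.658). *Cd1d1*, which presents lipids to natural killer T cells, gave 0.10 (limma adjusted p = 0.75), and its highest value, 267, was that of KD 1.

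The 7 called genes were nonclassical genes or pseudogenes at low levels. *H2-Q2*, at chr17:35342242-35346762, differed most: its CTL tumors ranged from 26.5 to 64.2 normalized counts (median 47.2) and its KD tumors from 256 to 518 (median 364). The lowest KD tumor, KD 4, was far above the highest CTL tumor, and CTL 3, high in most class I genes, was at 47.6. The ratio of the group means was 7.96, with a log2 fold change of 2.98 (SE 0.21, limma adjusted p = 1.79e-07), and the exact permutation test gave p = 0.00216, the smallest that 924 arrangements allow. *H2-Bl* (chr17:36080115-36084223), annotated as a polymorphic pseudogene, ranged from 5.98 to 12.6 in CTL (median 9.99) and from 28.2 to 57.4 in KD (median 46.0), a log2 fold change of 2.02 (SE 0.25, limma adjusted p = 2.01e-05). These are few reads per tumor in CTL, and the groups still did not overlap. *H2-T-ps* (chr17:36109234-36111658), an unprocessed pseudogene, ranged from 126 to 207 (median 192) and from 365 to 515 (median 424), a log2 fold change of 1.22 (SE 0.13, limma adjusted p = 4.59e-06). *H2-K2* (chr17:33974659-33978827), a transcribed pseudogene beside *H2-K1*, ranged from 19.9 to 35.0 and from 47.6 to 70.9, a log2 fold change of 1.08 (SE 0.18, limma adjusted p = 0.000289). In these 4 genes every KD tumor lay above every CTL tumor, as in 10.6% of all genes, and KD lay below CTL in 10.9% of all genes and in none of the 43.

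The other 3 called genes overlapped between the groups. *H2-Q10* (chr17:35470089-35474563), which encodes a secreted class I molecule made by the liver, ranged from 12.6 to 82.2 in CTL (median 22.4) and from 53.9 to 145 in KD (median 93.2), a log2 fold change of 1.85 (SE 0.39, limma adjusted p = 0.00178). A single CTL tumor, CTL 5, reached into the KD range. *H2-Q1* (chr17:35320405-35325099) ranged from 8.00 to 19.4 and from 15.7 to 45.4, a log2 fold change of 1.32 (SE 0.31, limma adjusted p = 0.00358), with 5 of 6 KD tumors above the highest CTL tumor. *H2-M2* (chr17:37480851-37483552) ranged from 30.3 to 253 (median 71.9) and from 92.0 to 336 (median 219), a log2 fold change of 1.31 (SE 0.45, limma adjusted p = 0.0312). Its CTL 3 value was the highest CTL value and lay above 3 of the KD tumors. *H2-Q5* at 0.44 (limma adjusted p = 0.0255) and *H2-T10* at 0.33 (limma adjusted p = 0.0211) were higher in KD with smaller differences, and *H2-T24* at 0.31 did not pass (limma adjusted p = 0.0649).

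**Figure D2:**
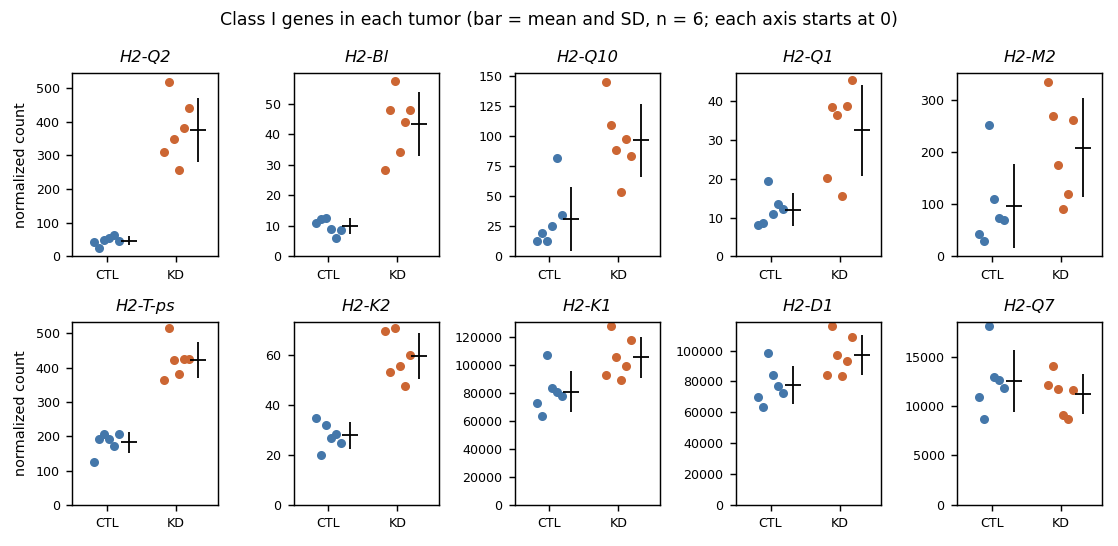
Normalized counts of 10 class I genes in each of the 12 tumors (points), with the mean and SD of each group (n = 6). The 6 KD values of *H2-Q2*, *H2-Bl*, *H2-T-ps* and *H2-K2* lie above all CTL values, while those of *H2-K1*, *H2-D1* and *H2-Q7* overlap with CTL.

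*Nlrc5*, the coactivator of the class I genes, had the lowest log2 fold change of the class. It ranged from 1279 to 2191 in CTL and from 1035 to 2064 in KD, with 1861 ± 366 and 1445 ± 363 as means (log2 fold change -0.38, SE 0.16, limma adjusted p = 0.0829). *Nlrc5* lies on chromosome 8, whose genes had a median log2 fold change of -0.19 in these tumors, and with that median removed its value was -0.18 (limma adjusted p = 0.407).

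Class I genes are close copies, and reads that match several genes equally were not counted by the authors' counter. Of the 100-base stretches of its transcripts, *H2-Q2* shared 5.09% with another gene, *H2-T-ps* 5.37%, *H2-Q1* 8.05% and *H2-Q10* 8.01%, but *H2-Bl* 0.185% and *H2-K1* 0.957%. The kit is not stated to keep the strand, so that reads of *H2-T22*, *H2-T10* and *H2-Q4* could not be told from those of antisense genes that overlap 29.4%, 27.1% and 19.1% of their exon length. When the trends of expression with GC content and length were removed from each tumor, *H2-K1* (limma adjusted p = 0.0920), *H2-D1* (0.189), *H2-Q5* (0.102) and *H2-T10* (0.0886) no longer passed and *H2-Q6* was lower at -0.36 (0.0263). *H2-M2* did not pass in edgeR on the recovered reads (adjusted p = 0.0738), and without CTL 1, CTL 2 or KD 2 the number of class I genes with an adjusted p under 0.05 fell from 11 to 7.

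**Figure D3:**
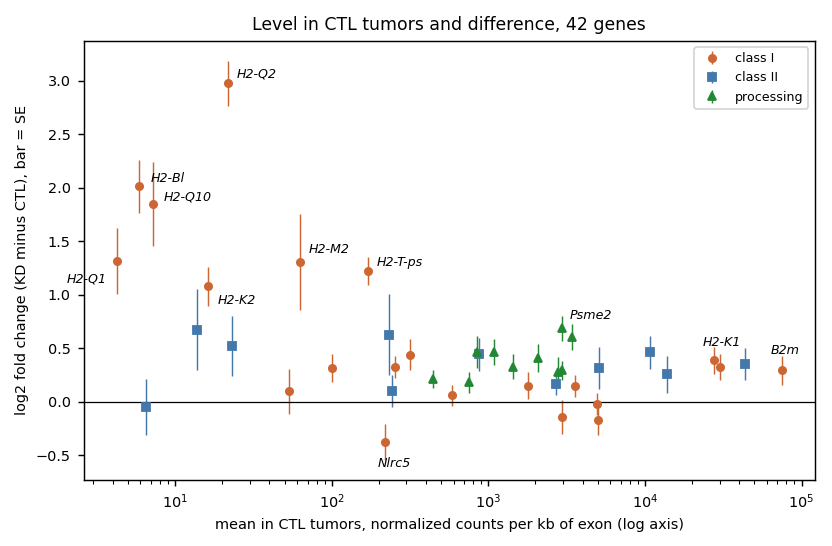
Mean level in CTL tumors (normalized counts per kb of exon, log axis) against the log2 fold change with its standard error, for the 42 genes of the 3 classes. The 7 genes above 1 are all class I genes and all lie between 4.24 and 171 normalized counts per kb, while *H2-K1*, *H2-D1* and *B2m* lie between 27560 and 74574.

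Class II genes were next compared between the groups. Of the 11 genes 2 were higher in KD with an adjusted p under 0.05, 0 were lower and 0 were called, so that their share was close to the 21.1% of all genes. At an unadjusted p under 0.05, 3 were higher and 0 lower in limma and in edgeR alike. The share of all genes at that cut was not counted, and in limma it cannot be below 21.1% higher and 20.7% lower. The median log2 fold change was 0.35, and 10 of 11 values were positive. *H2-Ab1*, the β chain of the I-A molecule, ranged from 19583 to 40036 normalized counts in CTL (median 26611) and from 28250 to 45070 in KD (median 38903). All KD tumors were above the CTL median and CTL 3 was above 4 of them. Its log2 fold change was 0.46 (SE 0.16, limma adjusted p = 0.0267). *H2-DMa*, the α chain of the peptide exchange factor, ranged from 2342 to 4353 (median 2752) and from 3109 to 5141 (median 4124), a log2 fold change of 0.44 (SE 0.15, limma adjusted p = 0.0320).

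The partners of these chains had positive values that did not pass. *H2-Aa*, the α chain that pairs with *H2-Ab1*, was at 19339 ± 5281 in CTL and 24121 ± 6054 in KD (log2 fold change 0.32, limma adjusted p = 0.214). *H2-Eb1*, annotated as the β chain of I-E, gave 0.26 (limma adjusted p = 0.252); the gene of its α partner is known as a pseudogene in C57BL/6 mice and was not listed. *Cd74*, the invariant chain and the most abundant class II gene, ranged from 53709 to 103132 in CTL (median 72027) and from 68877 to 108822 in KD (median 93789), a log2 fold change of 0.35 (limma adjusted p = 0.0728). *H2-DMb1* and *H2-DMb2*, the β chains of H2-DM, gave 0.17 (limma adjusted p = 0.231) and 0.63 (limma adjusted p = 0.200). They share 11.3% and 10.3% of their 100-base stretches with each other. The KD tumors of *H2-DMb2* fell apart, with 4 at 734 to 1013 and above every CTL tumor, and KD 4 and KD 5 at 254 and 290.

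*H2-Oa* and *H2-Ob*, which form the inhibitor of H2-DM in B cells and some dendritic cells, were low, with CTL means of 32.6 and 34.8 normalized counts, and their log2 fold changes of 0.52 (limma adjusted p = 0.153) and -0.05 (limma adjusted p = 0.896) did not pass. *H2-Eb2*, another β chain gene, gave 0.67 (limma adjusted p = 0.171). *Ciita*, the coactivator of all these genes, was at 2300 ± 303 in CTL and 2507 ± 557 in KD, a log2 fold change of 0.10 (limma adjusted p = 0.625). The sum of *H2-Aa*, *H2-Ab1*, *H2-Eb1* and *Cd74* ran from 104430 in CTL 2 to 211471 in CTL 3, and from 134896 in KD 4 to 222744 in KD 2. The ranges of the groups overlapped. The upper end of the CTL range rested on CTL 3, since the other 5 CTL tumors ran from 104430 to 152644, and KD 4 lay within that narrower range too. Without CTL 3 the class II genes with an adjusted p under 0.05 numbered 4 rather than 2. Without CTL 1, CTL 2, KD 2, KD 3 or KD 6 they numbered 0, and without CTL 5 or CTL 6 they numbered 1. With the trends in GC content and length removed they also numbered 0, with *H2-Ab1* at a limma adjusted p of 0.0625 and *H2-DMa* at 0.0755.

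Markers of the host cells that carry class II molecules gave these values beside that result. Of all genes 21.1% were higher and 20.7% lower with an adjusted p under 0.05, and the shares at an unadjusted p cannot be smaller. The pan-leukocyte markers summed to 10871 to 14639 normalized counts in CTL and 10475 to 23436 in KD, and 1 of 7 passed (*Lcp1*, log2 fold change 0.37, limma adjusted p = 0.0446, on chromosome 14, whose median was 0.39). The macrophage markers summed to 16087 to 22582 and 14106 to 25860, and 1 of 9 passed (*Cd68*, 0.36, limma adjusted p = 0.0401). *Adgre1*, which encodes F4/80, had the largest value of that list at 0.47 (limma adjusted p = 0.0590), and 6 of the 9 values were positive, with *C1qa* at -0.12. The dendritic cell markers summed to 1308 to 2010 and 1308 to 3172, and 0 of 8 passed in limma or edgeR, also at an unadjusted p under 0.05, with *Clec9a* at 0.44 (limma adjusted p = 0.307). In each of these sums the upper end of the KD range was the single tumor KD 1. The leukocyte marker *Ptprc*, for example, was at 2464 in KD 1 and at most 1377 in the other KD tumors. Most of the dendritic cell sum was a single gene, *Itgax*, at 2511 in KD 1 and at most 1176 in the other KD tumors. That sum thus says little about the other dendritic cell markers. Of 6 B cell markers only *Cd79b* was listed, at 21.6 ± 8.11 in CTL and 43.2 ± 12.4 in KD (log2 fold change 1.01, limma adjusted p = 0.0115). The part of these cells in the class II values was not tested.

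The genes of antigen processing were the most uniform class. Of 10 genes 7 were higher in KD with an adjusted p under 0.05 and 0 lower, beside 21.1% and 20.7% of all genes, and 0 were called, beside 6.2% called higher. All 10 values were positive, from 0.18 to 0.69 with a median of 0.37. At an unadjusted p under 0.05 limma and edgeR each gave 8 higher and 0 lower. The share of all genes at that cut was not counted, and in limma it cannot be below the adjusted shares. *Psme1* and *Psme2*, the α and β subunits of the interferon-induced proteasome activator PA28, differed most. *Psme1* ranged from 6345 to 9066 normalized counts in CTL (median 7132) and from 9075 to 13920 in KD (median 11556), a log2 fold change of 0.61 (SE 0.12, limma adjusted p = 0.000915). *Psme2* ranged from 4598 to 6146 (median 5059) and from 6742 to 10375 (median 8400), a log2 fold change of 0.69 (SE 0.11, limma adjusted p = 0.000271). In both genes every KD tumor lay above every CTL tumor, as in 10.6% of all genes, in *Psme1* by a small margin (exact permutation p = 0.00216 for each). Both lie on chromosome 14, whose genes had a median log2 fold change of 0.39, and with chromosome medians removed *Psme1* was at 0.22 (limma adjusted p = 0.150) and *Psme2* at 0.30 (limma adjusted p = 0.0483). *Psme2* shares 18.4% of its 100-base stretches with the copy *Psme2b*.

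The immunoproteasome subunits *Psmb8* and *Psmb9* and the subunits of the transporter are encoded side by side in the class II region. *Psmb8* ranged from 5598 to 9594 in CTL (median 6639) and from 7701 to 11504 in KD (median 8869), a log2 fold change of 0.41 (SE 0.13, limma adjusted p = 0.0230), and *Psmb9* was at 0.47 (SE 0.15, limma adjusted p = 0.0221). *Tap2* ranged from 3486 to 5423 (median 3841) and from 4443 to 6878 (median 5682), a log2 fold change of 0.47 (SE 0.12, limma adjusted p = 0.00755), and *Tap1* was at 0.33 (SE 0.12, limma adjusted p = 0.0381). *Tap1* did not pass in edgeR (adjusted p = 0.0511) or with chromosome medians removed (limma adjusted p = 0.0612). With single tumors left out *Tap1* failed 8 times out of 12, *Psmb8* 5 times and *Psmb9* 4 times. In each of these 4 genes all KD tumors were above the CTL median, and 2 or 3 of them were above CTL 3. *Psmb10*, the other interferon-induced subunit, lies on chromosome 8 and was at 0.27 (limma adjusted p = 0.157), or at 0.47 with chromosome medians removed (limma adjusted p = 0.0128). *Tapbp*, tapasin, rose from 10705 ± 1379 to 13089 ± 1265 (log2 fold change 0.29, SE 0.09, limma adjusted p = 0.0132). Its homologue *Tapbpl* at 0.18 (limma adjusted p = 0.157) and the peptide-trimming enzyme *Erap1* at 0.21 (limma adjusted p = 0.0633) did not pass. On the other strand *Gm19412* overlaps 24.9% of the exon length of *Tapbp*, *Gm20496* 14.7% of that of *Psmb8* and *Gm15821* 14.1% of that of *Tap2*. Reads from these overlaps could not be told apart by strand. With the trends in GC content and length removed 4 of 10 passed, *Psmb8* (limma adjusted p = 0.0754), *Psmb9* (0.0560), *Tap1* (0.0601) and *Tapbp* (0.0501) no longer among them and *Erap1* at 0.26 (0.00880) added, and 4 passed without CTL 6, KD 2 or KD 6.

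*H2-Ke6*, the remaining gene, encodes an enzyme of steroid and fatty acid metabolism and was at 29.4 ± 9.22 in CTL and 30.8 ± 6.32 in KD (log2 fold change 0.10, limma adjusted p = 0.783); 86.4% of its exon length lies in the transcript *Gm20427*. Over all 43 genes 20 were higher in KD and 0 lower with an adjusted p under 0.05, beside 21.1% and 20.7% of all genes. Every KD tumor lay above every CTL tumor in 6 of the 43, a share near the 10.6% of all genes.

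**Figure D4:**
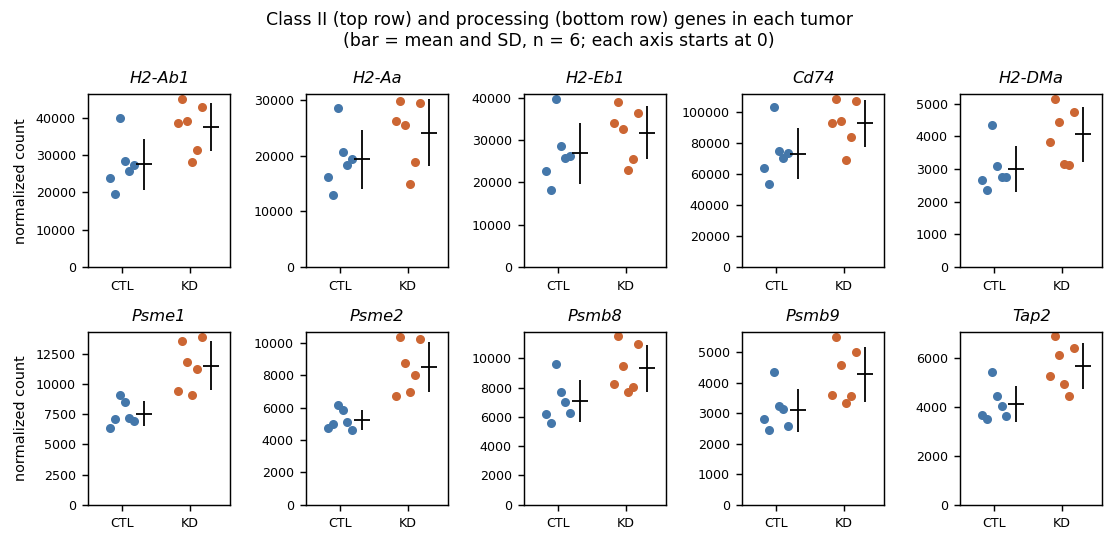
Normalized counts of 5 class II genes (top row) and 5 processing genes (bottom row) in each of the 12 tumors (points), with the mean and SD of each group (n = 6). A single CTL tumor, CTL 3, stands above the other CTL tumors in most panels, and *Psme1* and *Psme2* are the only panels in which the groups do not overlap.

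Ratios between genes of the same tumor do not depend on how the tumor was scaled, and 6 were compared by exact two-sided permutation tests with adjustment over the 6 pairs. The log2 ratio of *H2-K1* to *H2-D1* was 0.05 ± 0.05 (SD, n = 6) in CTL and 0.12 ± 0.02 in KD, a difference of 0.06 (exact permutation p = 0.0152, adjusted 0.0455). The log2 ratio of *Cd74* to *H2-Ab1* fell from 1.42 ± 0.03 to 1.31 ± 0.06, a difference of -0.11 (exact permutation p = 0.00866, adjusted 0.0455). It was below the CTL median in all 6 KD tumors, and the difference was -0.04 (adjusted p = 0.403) with chromosome medians removed, *Cd74* being on chromosome 18. Both ratios varied little among the tumors of a group, and their differences between groups were small. The interferon-induced proteasome subunits were set against the standard ones that they replace. The log2 ratio of *Psmb8* to *Psmb5* was 1.63 ± 0.22 in CTL and 1.39 ± 0.20 in KD (difference -0.24, exact permutation p = 0.0736, adjusted 0.0935), that of *Psmb9* to *Psmb6* 0.07 ± 0.17 and 0.33 ± 0.25 (difference 0.25, exact permutation p = 0.0779, adjusted 0.0935) and that of *Psmb10* to *Psmb7* 0.87 ± 0.28 and 0.97 ± 0.16 (difference 0.10, exact permutation p = 0.504). The 3 differences were of unlike sign and none passed. *Psmb5* lies on chromosome 14, and with chromosome medians removed the first ratio differed by 0.10. The log2 ratio of *Tap1* to *Tap2* was 0.94 ± 0.11 and 0.80 ± 0.11 (difference -0.14, exact permutation p = 0.0541, adjusted 0.0935).

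Other genes of the pathway were compared from lists. Of 16 genes of the standard proteasome and its other activators 3 were higher in KD and 0 lower with an adjusted p under 0.05, where 21.1% and 20.7% of all genes were. *Psmb5*, a standard catalytic subunit, ranged from 2006 to 2586 in CTL and from 2884 to 4007 in KD (log2 fold change 0.65, limma adjusted p = 3.57e-05), and *Psme3* and *Psmb4* were both at 0.19 (limma adjusted p = 0.00244 and 0.0395). Of the 4 chaperones of class I folding and loading only *Hspa5* passed, at 0.37 (limma adjusted p = 0.00211), with *Calr* at 0.30 (limma adjusted p = 0.0524). Of the 4 genes that make class II peptides in endosomes only *Ifi30*, a thiol reductase, passed, at 0.71 (SE 0.12, limma adjusted p = 0.000315), while the protease gene *Ctss* was at 0.03 (limma adjusted p = 0.927). All 7 genes of the RFX complex, NF-Y and CREB, factors that bind MHC promoters together with CIITA or NLRC5, had negative log2 fold changes, from -0.21 to -0.01, and *Creb1* at -0.21 (limma adjusted p = 0.0177) and *Nfya* at -0.19 (limma adjusted p = 0.0117) fell, where 20.7% of all genes did.

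Interferon-γ is the main known inducer of these genes. Of the 15 listed genes of interferon signalling 5 were higher and 1 lower with an adjusted p under 0.05, beside 21.1% and 20.7% of all genes, and the median log2 fold change was 0.12. *Ifng* itself ranged from 58.7 to 106 in CTL (median 89.7) and from 48.4 to 121 in KD (median 110), and did not pass (log2 fold change 0.12, limma adjusted p = 0.714). Its receptor chains were higher in every KD tumor than in any CTL tumor, as were 10.6% of all genes: *Ifngr2* ranged from 2242 to 2448 in CTL and from 3272 to 4063 in KD (log2 fold change 0.65, SE 0.05, limma adjusted p = 6.34e-07), and *Ifngr1* was at 0.32 (SE 0.05, limma adjusted p = 0.000284). The receptor kinase gene *Jak2* fell from a range of 4027 to 5161 to one of 2850 to 3881 (log2 fold change -0.54, SE 0.08, limma adjusted p = 8.39e-05). *Jak2* lies on chromosome 19, whose genes had a median log2 fold change of -0.35. Transcription factors downstream differed among themselves, with *Irf8* at 0.91 (limma adjusted p = 0.000291), *Irf9*, on chromosome 14 with its median of 0.39, at 0.30 (limma adjusted p = 0.00237) and *Irf1* at -0.03 (limma adjusted p = 0.841), and the kinase gene *Tyk2* was at 0.33 (limma adjusted p = 0.0136). Among 6 genes of costimulation and checkpoint ligands *Cd40*, the receptor of T cell help on antigen-presenting cells, was called, where 6.2% of all genes were called higher. It ranged from 91.1 to 187 in CTL and from 214 to 363 in KD (log2 fold change 1.23, SE 0.17, limma adjusted p = 6.15e-05). *Icosl* was at 0.52 (limma adjusted p = 0.00957), and *Cd274*, which encodes PD-L1, was at -0.37 (limma adjusted p = 0.184) and also lies on chromosome 19.

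Markers of other cell types are given beside the class I and processing results. Of all genes 6.2% were called higher. With an adjusted p under 0.05 alone 21.1% were higher and 20.7% lower, and the shares at an unadjusted p cannot be smaller. The T cell markers summed to 909 to 2495 in CTL and 993 to 2004 in KD, and 0 of 7 passed in limma or edgeR, also at an unadjusted p under 0.05. All 6 neutrophil markers were called, with *S100a9* at 1.87, *Cxcr2* at 1.59, *S100a8* at 1.58, *Csf3r* at 1.33, *Mmp8* at 1.21 and *Retnlg* at 2.12. Their sums were 305 to 380 in CTL and 767 to 1223 in KD. *Retnlg* averaged only 5.43 normalized counts in CTL and 26.1 in KD. The lowest mean of any listed gene over all tumors was 9.28, so that *Retnlg* was listed only through its KD values. The epithelial markers summed to 135268 to 175876 and 188331 to 352257, with *Krt19* at 1.65, *Epcam* at 1.51 and *Krt8* at 1.06 called, *Krt18* at 0.44 (limma adjusted p = 0.0122) and *Cdh1* at 0.01. The skeletal muscle markers summed to 1839 to 9873 and 3800 to 76043, and 5 of 6 were called, *Acta1* at 2.15, *Mylpf* at 1.89, *Ckm* at 1.78, *Tnnt3* at 1.76 and *Tnni2* at 1.59. The part of these cells in the class I and processing values was not tested.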

How the data were processed

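RNA from 12 subcutaneous tumors was sequenced, 6 CTL and 6 KD, grouped by their labels. Per the labels and the methods of the study, the authors trimmed reads with Trimmomatic 0.36, aligned them to the mouse genome (mm10) with STAR 2.5.2b, counted unique reads per gene with featureCounts of Subread 1.5.2 and divided by DESeq2 size factors. The deposited values are thus a signal in normalized counts, without correction for length. Values were whole multiples of 1 step per tumor in 100% of cases (tolerance 0.01), which gave back the reads. A floor of 3 reads was worth 2.59 to 4.48 normalized counts, and it covers counting error only, since reads carried no molecular identifiers.

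Log2 of the value plus a pseudocount of 1 was compared between groups in limma 3.58.1 (R 4.3.3), letting the variance follow the mean, and p-values were adjusted over 15687 genes by Benjamini-Hochberg. A call needed an adjusted p under 0.05 together with a log2 fold change over 1 in size. A filter at a mean of 5 removed 0 genes. Single values and ratios used exact two-sided permutation tests over 924 arrangements. Alternatives included edgeR 4.0.16 on the recovered reads, and limma and edgeR were tested on simulated data. Positions, exons and lengths came from GENCODE vM21 (GRCm38). Promoter motifs were searched on both strands.

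The genes, lists and tests were chosen with earlier results of these data known. Every gene under the rule is named. Of other lists, genes that were called and up to 4 others per list by size of change are named, and *Ifng*, *Ifngr1*, *Irf9*, *Irf1* and *Psme3* were added after their values were seen. Python 3.11.15 with matplotlib 3.10.9 drew the figures.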

Additional observations from a re-analysis of the deposited data

Results flagged for a closer look

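In 8 of the 86 groups of 6 tumors (43 genes in CTL and in KD), 1 tumor lay apart from the other 5 by Dixon's test at the 95% level, and chance alone gives about 1 in 20. 6 of the 8 were in CTL. CTL 3 was the high tumor in *Tapbp* (13398 normalized counts), *H2-DMb1* (6065), *H2-DMa* (4353), *H2-M3* (1065) and *H2-M2* (253). CTL 5, the tumor with the fewest reads, was high in *H2-Q10* (82.2). Among KD tumors, KD 1 was high in *Cd1d1* (267), and KD 4 was low in *H2-Oa* (25.5).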

How the results depend on the processing

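The comparison was repeated with a pseudocount of 0.5 or 8, without the filter or with one at 20, with tumors set to a common 75th percentile or a common total, in limma with constant prior variance, with the replicate number as block, after taking out chromosome medians or GC and length trends, in edgeR on the recovered reads, and with 1 tumor left out. Class I genes called numbered 5 to 7 and class II and processing genes called 0 under all of them. At an adjusted p under 0.05, class I numbered 8 to 11 (with GC and length trends removed 7 higher and 1 lower), and edgeR gave 10 class I, 2 class II and 6 processing genes, all higher. Class II numbered 1 with constant prior variance and 0 with GC and length trends removed, where processing numbered 4. Leaving out 1 tumor gave 7 to 13 class I, 0 to 4 class II and 4 to 8 processing genes.

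With chromosome medians removed the difference in the log2 ratio of *Psmb8* to *Psmb5* turned to 0.10, and that of *Cd74* to *H2-Ab1* was -0.039. The ratio of *H2-K1* to *H2-D1* could not change, since both genes lie on chromosome 17. Its difference was 0.064, and its adjusted p (0.0649) moved only through the adjustment over the pairs. Leaving out 1 tumor, the differences for *Psmb8* to *Psmb5*, *H2-K1* to *H2-D1* and *Cd74* to *H2-Ab1* ranged from -0.31 to -0.18, 0.049 to 0.076 and -0.13 to -0.10, with adjusted p values in exact permutation tests of 0.0390 to 0.182, 0.0260 to 0.110 and 0.0130 to 0.0909, and *Tap1* to *Tap2* from -0.17 to -0.11. Few tumors limit the p that such tests can reach.

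Only genes that had not passed the test changed sign. With GC and length trends removed the log2 fold changes were -0.20 for *H2-M3*, -0.061 for *Cd1d1*, -0.059 for *H2-DMb1* and -0.032 for *H2-Ke6*, and edgeR gave 0.0032 for *H2-Ob*. Leaving out 1 tumor gave -0.081 to 0.051 for *H2-Q4*, -0.079 to 0.24 for *Cd1d1*, -0.22 to 0.088 for *H2-Ob* and -0.043 to 0.22 for *H2-Ke6*. The cause was not tested.

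Replicate numbers do not pair the tumors: deviations of same-numbered tumors correlated from -0.269 to 0.099. With the number as a block, 6 class I genes were called, and 9 class I, 2 class II and 7 processing genes had an adjusted p under 0.05.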
